A study of Mus musculus with 39 samples.

Results

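The interferon-stimulated genes are genes that cells switch on when an interferon binds its receptor. They were chosen by symbol, and 34 of 34 symbols matched 1 gene each among the 38293 genes of the count table. RNA was sequenced from the left ventricle of 39 C57BL6/J mouse hearts. The mutant set held mice with Pln R14del, a deletion of an arginine codon of phospholamban, the protein that restrains the calcium pump of heart muscle. Groups of 4 wild type (wt) and 4 homozygous (Pln R14del/R14del) hearts were taken at 3 weeks and again at 5 weeks of age. At 8 weeks, wild type (n = 3), heterozygous (Pln wt/R14del, n = 4) and homozygous (n = 4) hearts were taken. The surgery set held wild type males aged 12 weeks at operation. Ischemia-reperfusion hearts (I/R, n = 4, aged 12 weeks) had a coronary artery closed for a time, and were taken 3 days later. Infarction hearts (MI, n = 4, aged 20 weeks) had it closed for good, and were taken 8 weeks later. Tissue in this set came from muscle away from the infarct. Sham hearts (n = 4) were aged 12 weeks (n = 2) or 20 weeks (n = 2) and served as 1 control group.

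Interferons are secreted proteins that warn cells of virus or of nucleic acid in the wrong place. Type I interferons act through the receptor pair Ifnar1 and Ifnar2 and the kinases Jak1 and Tyk2, and Stat2 and Irf9 take part in the factor that then binds the interferon-stimulated response element (ISRE). Interferon gamma acts through Ifngr1 and Ifngr2, and its early target genes carry the gamma-activated site (GAS). Irf1 is among its direct targets, and Irf7 amplifies the type I response. In the heart the response is known from viral myocarditis and from macrophages after infarction.

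The promoters of 5 members are shown because the results turn on them: Isg15 rose after ischemia-reperfusion, Ifit3 rose in both disease settings, Ifi207 rose most at 8 weeks, and Rsad2 and Irf1 fell at that age. Each window, from RefSeq in GRCm38.p6, runs from 250 bases before to 50 bases after the gene's start and is written 5′ to 3′ on the gene's strand. Capitals mark the ISRE core, read here as GAAA, any 2 bases and GAAA on either strand, and in Irf1 the GAS core TTCNNNGAA. The windows are chr4:156200769-156201068 (minus strand) for Isg15, chr19:34583279-34583578 (plus) for Ifit3, chr1:173741760-173742059 (minus) for Ifi207, chr12:26456403-26456702 (minus) for Rsad2 and chr11:53769764-53770063 (plus) for Irf1.
Isg15: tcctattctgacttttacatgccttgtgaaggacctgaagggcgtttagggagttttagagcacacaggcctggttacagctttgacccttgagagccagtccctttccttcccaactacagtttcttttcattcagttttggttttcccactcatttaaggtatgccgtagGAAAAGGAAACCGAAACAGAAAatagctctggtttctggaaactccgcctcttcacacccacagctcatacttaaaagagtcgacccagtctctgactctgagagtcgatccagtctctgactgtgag
Ifit3: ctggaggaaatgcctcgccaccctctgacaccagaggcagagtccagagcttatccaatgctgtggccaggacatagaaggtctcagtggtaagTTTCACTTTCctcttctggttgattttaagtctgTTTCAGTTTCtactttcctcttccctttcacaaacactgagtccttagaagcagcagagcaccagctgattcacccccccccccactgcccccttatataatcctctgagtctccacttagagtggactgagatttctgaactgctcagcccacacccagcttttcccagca
Ifi207: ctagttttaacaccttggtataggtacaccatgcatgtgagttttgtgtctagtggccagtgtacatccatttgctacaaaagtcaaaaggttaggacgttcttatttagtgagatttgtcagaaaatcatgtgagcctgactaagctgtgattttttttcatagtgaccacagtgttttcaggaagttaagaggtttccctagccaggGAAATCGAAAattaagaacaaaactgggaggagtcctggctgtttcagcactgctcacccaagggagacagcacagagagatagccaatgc
Rsad2: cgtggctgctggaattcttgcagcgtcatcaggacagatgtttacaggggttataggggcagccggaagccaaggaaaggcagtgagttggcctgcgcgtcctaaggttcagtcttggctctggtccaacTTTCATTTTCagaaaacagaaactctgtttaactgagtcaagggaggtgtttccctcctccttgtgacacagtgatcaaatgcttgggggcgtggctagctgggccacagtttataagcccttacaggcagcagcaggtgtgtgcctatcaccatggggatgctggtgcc
Irf1: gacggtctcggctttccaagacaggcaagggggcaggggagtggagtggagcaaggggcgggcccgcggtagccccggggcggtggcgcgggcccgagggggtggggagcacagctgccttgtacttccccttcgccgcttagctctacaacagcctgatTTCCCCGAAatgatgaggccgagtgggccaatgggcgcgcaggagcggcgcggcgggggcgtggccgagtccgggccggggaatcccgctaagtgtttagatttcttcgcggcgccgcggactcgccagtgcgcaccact

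Isg15 held 3 overlapping ISRE cores in a row, and Ifit3 held 2 on the strand opposite to the gene, while Ifi207 and Rsad2 held 1 each and Irf1 held no ISRE core in this window. A window was at hand for 26 of the 34 members. The ISRE core stood in 15 of these 26 genes (57.7%), against 1079 of 27025 genes with a window of the same length (3.99%). The GAS core stood in 7 of 26 (26.9%), against 2582 of 27025 (9.55%). At 8 weeks the ISRE core stood in 4 of 6 higher members with a window, 5 of 9 lower members and 6 of 11 that did not pass the test. After ischemia-reperfusion it stood in 10 of 14 higher members and 5 of 12 that did not pass. A match describes the letters only.

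Depth ran from 9402904 to 19320791 counts per library, with 9784771 to 11984580 counts at 5 weeks and 13065153 counts or more at 3 and 8 weeks. The submitters' short names of the 5-week libraries follow another scheme than those of 3 and 8 weeks, and whether these were a separate batch is not given in the labels. Cardiomyocyte markers summed to 35143 CPM or more in every library, with all 10 markers detected in each group. Levels are CPM, a gene's counts per 1000000 counts of its library, scaled by TMM, edgeR's correction for differences in RNA composition. Values are means ± SD over hearts. Fold changes and adjusted p-values come from edgeR's quasi-likelihood test over all genes, adjusted by Benjamini and Hochberg's method, with 0.05 as the threshold. Standard errors (SE) are on the log2 scale. The labels do not say how the samples relate to litters or batches, so p-values measure only the spread between these samples.

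Markers of several cell types also differed between the groups. As a background, 22.3% of all genes were higher and 21.4% lower at 5 weeks, and 30.8% and 29% at 8 weeks. After ischemia-reperfusion it was 16.9% and 14.1%, and after infarction 6.62% and 4.77%. Of the macrophage markers, 11 of 12 in homozygous hearts passed as higher at 5 weeks (Cd163 passed as lower) and 11 of 12 at 8 weeks, as did 11 of 12 after ischemia-reperfusion and 2 of 12 after infarction. Their summed level was 504 to 549 CPM in wild type and 1881 to 2350 CPM in homozygous hearts at 5 weeks, 498 to 610 and 1615 to 2770 CPM at 8 weeks, 347 to 577 CPM in shams, 1241 to 1969 CPM after ischemia-reperfusion and 550 to 768 CPM after infarction. No macrophage marker was at 0 in any group. Cardiomyocyte markers moved the other way, with 8 of 10 lower at 5 weeks, 8 of 10 at 8 weeks and 9 of 10 after ischemia-reperfusion. Monocyte markers passed as higher in 4 of 5 tested at 5 weeks, 2 of 3 at 8 weeks and 5 of 5 after ischemia-reperfusion. Neutrophil markers were higher in 1 of 1 tested, 3 of 3 and 4 of 4. Dendritic cell markers were higher in 2 of 3 tested (1 lower), 3 of 4 (1 lower) and 2 of 4. Fibroblast markers were higher in 9, 10 and 7 of 10, with 1 lower in the last. Endothelial markers were lower in 10 of 10 at 5 weeks, 6 of 10 at 8 weeks (3 higher) and 3 of 10 after ischemia-reperfusion. Of 11 markers of T and NK cells, the cells known to make interferon gamma, 4, 5 and 1 could be tested at 5 weeks, 8 weeks and after ischemia-reperfusion, and 3, 1 and 1 were higher. The part of these shifts in the results below was not tested. In bulk tissue, fewer cells of a type and less RNA per cell cannot be told apart.

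At 3 weeks, the members stood lower in homozygous than in wild type hearts without passing the test. The log2 fold changes ran from -1.10 to -0.06, so that 34 of 34 were negative, with a median of -0.48 (median of all genes 0.00). edgeR called 0 of 34 members and 0% of 13427 genes, and DESeq2 also called 0 members. The mean of log2(CPM + 0.5) over the 34 members was 3.712, 3.941, 3.978 and 3.116 in the wild type hearts and 3.439, 3.175, 3.399 and 2.957 in the homozygous hearts. Replicate 4 was the lowest heart of each genotype, and the genotypes overlapped. Taken singly, 0 members lay wholly above and 2 wholly below wild type hearts, where 3.13% and 2.58% of genes did. Macrophage markers summed to 404 to 518 CPM in the wild type and 315 to 420 CPM in the homozygous hearts of this age.

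At 5 weeks the members split in homozygous hearts. Sensor genes (Ifi207, Ifi204, Zbp1 and Dhx58, 4 of 5), 4 Ifit genes and both immunoproteasome genes rose, while Rsad2 and 4 other members fell. The test called 13 members higher and 5 lower, where 22.3% of 13323 genes were higher and 21.4% lower (43.7% in all). Homozygous hearts lay wholly above wild type hearts in 7 of 34 members and wholly below in 3, where 19.86% and 20.21% of genes did. The median log2 fold change was 0.23 over the members and 0.00 over all genes. When only library size was used for scaling, the all-gene median stood at 0.21, and 20 members were higher and 1 lower. With all 39 libraries in the fit, 7 were higher and 2 lower.

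At 8 weeks 9 members were higher and 11 lower in homozygous hearts, where 30.8% of 14314 genes were higher and 29% lower (59.8% in all). The share of members called, 20 of 34, was near that background. Homozygous hearts lay wholly above wild type hearts in 8 of 34 members and wholly below in 9, where 28.73% and 29.03% of genes did. Groups without overlap were therefore common at this age. The members ranged from a log2 fold change of -1.16 (Rsad2 and Cmpk2) to 2.35 (Ifi207), with a median of -0.09 beside 0.02 for all genes. Of the 13 members that rose at 5 weeks, 8 also rose at 8 weeks, and of the 5 that fell, 4 also fell. None of the members passed in opposite directions at these ages. No share over all genes stands beside these counts, which only describe the members. Of all genes, 43.7% passed at 5 weeks and 59.8% at 8 weeks.

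In heterozygous hearts at 8 weeks no member passed. edgeR called 0 of 34 members and 0% of 14314 genes, DESeq2 called 0 members, and the log2 fold changes ran from -0.81 to 0.26. Heterozygous hearts lay wholly above wild type hearts in 1 member and wholly below in 1, where 2.45% and 3.12% of genes did. Homozygous against heterozygous hearts gave 10 members higher and 9 lower, where 32% of genes were higher and 30% lower (61.9% in all). The heterozygous comparison shares its wild type hearts with the homozygous comparison of that age, and the homozygous against heterozygous comparison shares 1 of its groups with each of those 2.

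After ischemia-reperfusion most members rose and none fell. The test called 22 of 34 higher and 0 lower, where 16.9% of 13611 genes were higher and 14.1% lower (31% in all), and the median log2 fold change was 0.66 over the members and -0.02 over all genes. I/R hearts lay wholly above shams in 17 of 34 members and wholly below in 0, where 15.49% and 12.3% of genes did. Against the 2 shams of the same age alone, 14 members were higher. With library size scaling the all-gene median stood at 0.21, and 26 members were higher and 0 lower. After infarction, only Oasl2 passed, as 1 of 34 members, where 6.62% of 13611 genes were higher and 4.77% lower (11.4% in all). Against the 2 shams of that age, 4 members were higher and 1 was lower. The direct comparison of ischemia-reperfusion with infarction hearts, which differ in age and in time after injury, called 18 members higher and 0 lower, where 11.2% of genes were higher and 8.84% lower (20.1% in all).

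**Figure D1:**
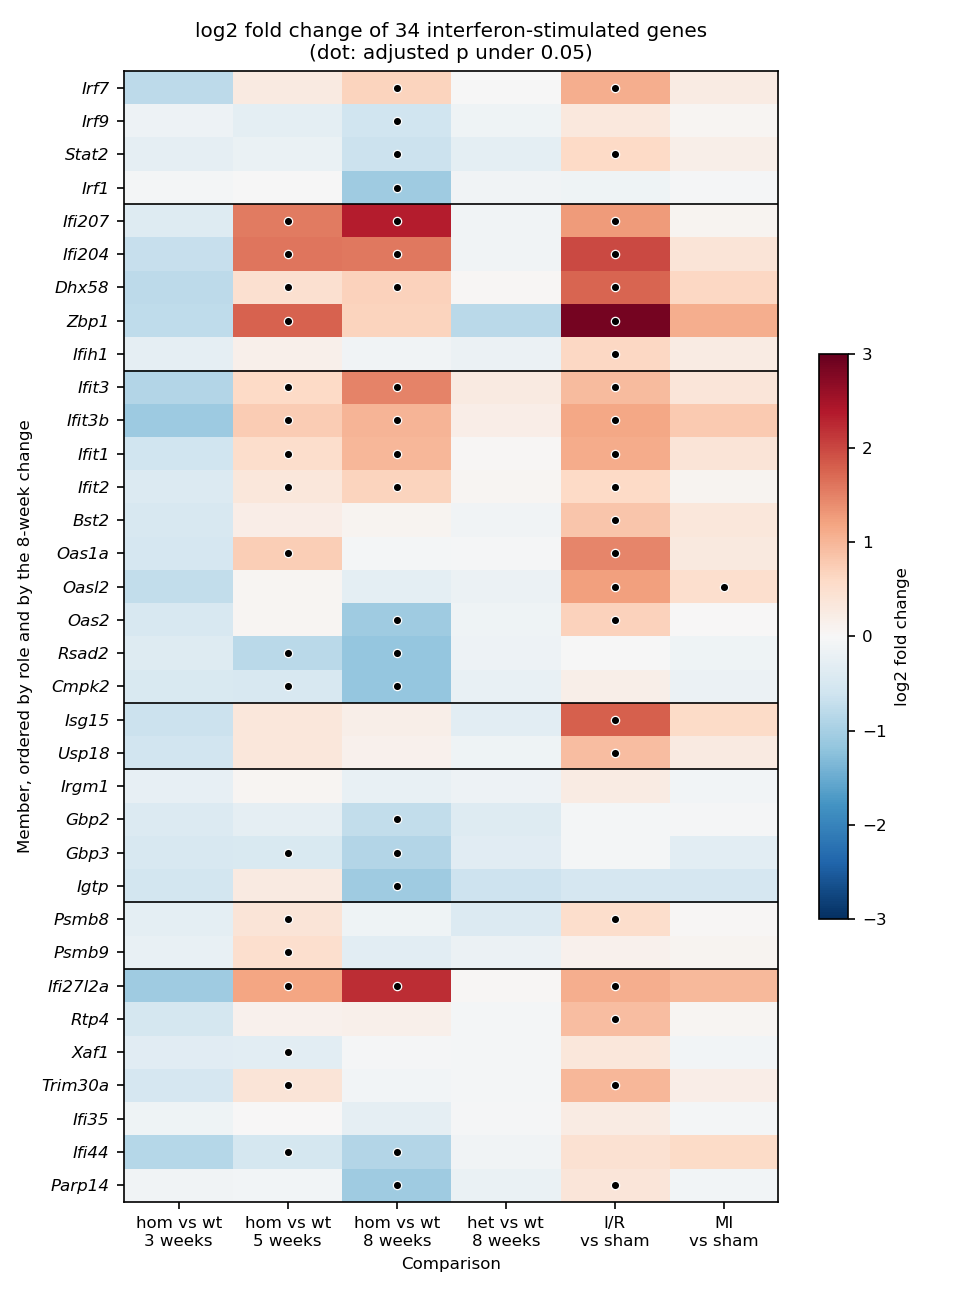
Log2 fold change of each of the 34 members (rows, grouped by role and ordered by the 8-week change) in 6 comparisons (columns). Red is higher and blue lower than the control group, and a dot marks an edgeR adjusted p under 0.05. All 34 cells of the 3-week column are below 0 with no dot, the 5-week and 8-week columns hold both colours, and the ischemia-reperfusion column holds 22 dots, all on red.

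**Figure D2:**
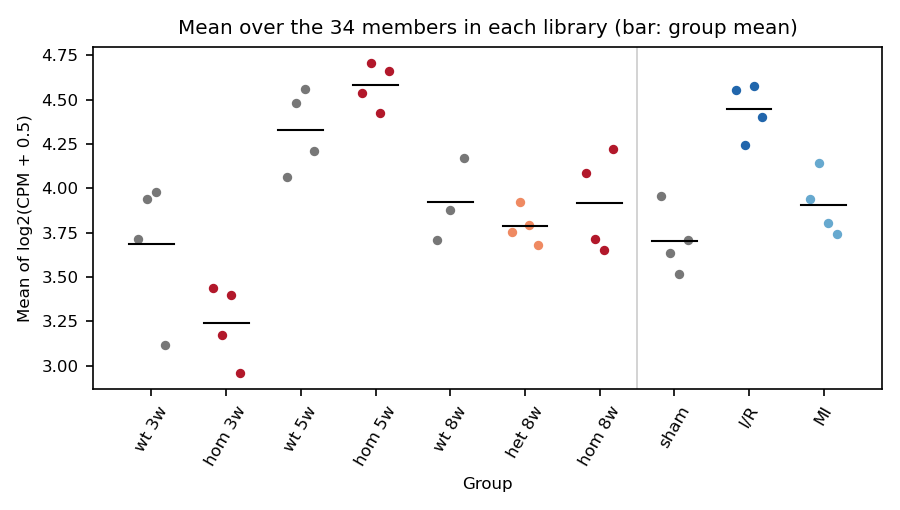
Mean of log2(CPM + 0.5) over the 34 members in each library (points) by group, with the group mean as a bar and the vertical axis not starting at 0. The ischemia-reperfusion hearts (4.25 to 4.58) lie above all shams (3.52 to 3.96), while homozygous hearts at 8 weeks (3.65 to 4.22) overlap wild type hearts (3.71 to 4.17).

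Among the transcription factors, Irf7, Irf1, Stat2 and Irf9, the members parted at 8 weeks: Irf7 rose and the other 3 fell. Over all genes 30.8% were higher and 29% lower at that age. Irf7 (ENSMUSG00000025498, chr7:141262706-141266481, minus strand), the amplifier of type I interferon production, stood at 14.5, 21.5 and 22.2 CPM in wild type, 16.3, 22.0, 22.6 and 16.1 CPM in heterozygous and 41.7, 22.3, 21.2 and 37.9 CPM in homozygous hearts at 8 weeks. Replicates 1 and 4 of the homozygous hearts were high, and the other 2 stood near the upper wild type hearts, so the groups overlapped. The log2 fold change was 0.68 ± 0.25 (SE; edgeR adjusted p = 0.0342), and the call ended without homozygous replicate 1 or 4 and without wild type replicate 1 or 2. At 5 weeks it was 0.26 ± 0.13 (edgeR adjusted p = 0.12), with 30.4 to 52.3 CPM in wild type and 38.9 to 58.5 CPM in homozygous hearts. After ischemia-reperfusion Irf7 stood at 32.8, 32.8, 38.2 and 31.8 CPM, above 22.0, 15.0, 11.3 and 15.5 CPM in shams, a 2.13-fold rise (edgeR adjusted p = 0.000553). The I/R hearts lay above every sham. Infarction hearts held 13.6 to 26.3 CPM (edgeR adjusted p = 0.453). Irf7 overlaps Phrf1 on the opposite strand.

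Irf1 (ENSMUSG00000018899, chr11:53770014-53778374, plus strand), a factor that carries much of the response to interferon gamma, fell at 8 weeks. It stood at 34.7, 36.6 and 50.1 CPM in wild type, 37.3, 42.6, 35.7 and 34.2 CPM in heterozygous and 12.4, 18.2, 19.1 and 26.8 CPM in homozygous hearts. Every homozygous heart lay below every other heart of that age, with a 2.1-fold fall (log2 -1.07 ± 0.20, edgeR adjusted p = 0.000612). At 5 weeks the genotypes overlapped, with 34.1 ± 1.21 CPM in wild type and 33.7 ± 4.62 CPM in homozygous hearts (edgeR adjusted p = 0.988). At 3 weeks they stood at 32.2 ± 3.95 and 30.9 ± 2.42 CPM. Sham, ischemia-reperfusion and infarction hearts held 33.5 ± 3.65, 30.7 ± 2.47 and 32.7 ± 3.63 CPM (n = 4 each; edgeR adjusted p = 0.411 and 0.854). The genotype effect on Irf1 was lower at 8 than at 5 weeks by 1.04 ± 0.21 on the log2 scale in a test of the difference itself (log2 -1.04, edgeR adjusted p = 0.000239).

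Stat2 (ENSMUSG00000040033, chr10:128270559-128292849, plus strand), a transcription factor of the type I signal, moved in opposite directions in the 2 sets. At 8 weeks it stood at 39.7, 43.7 and 56.7 CPM in wild type, 35.3 to 41.9 CPM in heterozygous and 30.6, 25.4, 26.2 and 36.4 CPM in homozygous hearts. Stat2 fell 1.56-fold against wild type, without overlap between homozygous and wild type hearts (edgeR adjusted p = 0.00194). After ischemia-reperfusion it stood at 51.6, 35.8, 52.6 and 45.4 CPM against 31.9, 28.8, 33.6 and 29.3 CPM in shams, a 1.5-fold rise without overlap (edgeR adjusted p = 0.00162). The 2 effects differed by -1.21 ± 0.20 on the log2 scale (edgeR adjusted p = 2.1e-05). At 8 weeks homozygous replicate 4 lay within the heterozygous range. Stat2 also passed as lower against heterozygous hearts (log2 -0.36), a call that ended in 5 of 14 alternatives, among them library size alone. Irf9, which binds DNA for the same factor, fell 1.5-fold at 8 weeks, from 34.1 ± 6.57 to 22.5 ± 5.37 CPM (edgeR adjusted p = 0.00965), a call that ended when scaled by library size alone (adjusted p = 0.0694). It stood at 32.1 ± 6.25 CPM after ischemia-reperfusion and 25.8 ± 1.76 CPM in shams (edgeR adjusted p = 0.0521). Irf9 overlaps Rnf31 on the same strand.

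Of the 5 nucleic acid sensors, 4 were higher at 5 weeks, 3 at 8 weeks and 5 after ischemia-reperfusion, and 0 were lower in any of these, where 22.3%, 30.8% and 16.9% of all genes were higher. Ifi207 (ENSMUSG00000073490, chr1:173723427-173741747, minus strand) belongs to the family of interferon-inducible DNA-binding proteins with a HIN domain. At 8 weeks it stood at 9.69, 10.1 and 12.2 CPM in wild type, 10.1, 12.0, 8.34 and 8.72 CPM in heterozygous and 38.4, 69.1, 59.8 and 48.3 CPM in homozygous hearts. Wild type and heterozygous hearts overlapped, and every homozygous heart lay above all of them. The rise was 5.1-fold (log2 2.35 ± 0.20, edgeR adjusted p = 1.37e-06). At 5 weeks it was 2.96-fold, from 7.09, 9.40, 8.99 and 6.91 to 23.4, 28.3, 19.7 and 23.6 CPM (edgeR adjusted p = 2.17e-08), and the 8-week effect was larger by 0.81 ± 0.22 on the log2 scale (edgeR adjusted p = 0.00497). After ischemia-reperfusion it rose 2.42-fold, from 11.3, 11.6, 11.5 and 11.7 to 26.7, 29.1, 27.6 and 27.4 CPM (edgeR adjusted p = 9.39e-07), while infarction hearts held 10.3 to 13.5 CPM (edgeR adjusted p = 0.688). At 3 weeks homozygous hearts held 5.01 to 6.87 CPM and wild type hearts 6.52 to 9.43 CPM.

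Ifi204, a neighbour of Ifi207 in the same family, rose 3.03-fold at 5 weeks, 2.98-fold at 8 weeks and 3.92-fold after ischemia-reperfusion (edgeR adjusted p = 7.92e-07, 0.00313 and 8.86e-07). The groups did not overlap in these 3 comparisons, from 5.87 ± 0.476 CPM in shams to 23.0 ± 3.42 CPM in I/R hearts, for example. Genes of this family are alike in sequence, so reads may be split between them in ways the counts do not show. Zbp1, a sensor of Z-form nucleic acid that can trigger cell death, had the largest rise of any member after ischemia-reperfusion. It rose 7.27-fold, from 1.73 ± 0.846 to 12.6 ± 2.07 CPM (edgeR adjusted p = 1.88e-05), and 3.41-fold at 5 weeks, from 3.00 ± 0.622 to 10.2 ± 1.14 CPM (edgeR adjusted p = 1.95e-07). At 8 weeks it stood at 2.87 ± 1.46 CPM in wild type and 4.50 ± 1.68 CPM in homozygous hearts (edgeR adjusted p = 0.147). Heterozygous hearts of that age held 1.62 ± 0.504 CPM. Against these, Zbp1 passed as higher in homozygous hearts (log2 1.475), a call kept in 14 of 14 alternatives. Dhx58, a regulator of RNA sensing, rose 1.39-fold at 5 weeks, 1.61-fold at 8 weeks and 3.35-fold after ischemia-reperfusion (edgeR adjusted p = 0.0315, 0.00932 and 0.000934), and its 5-week call ended without any of 4 libraries and with all libraries in the fit. Ifih1, which encodes the RNA sensor MDA5, passed only after ischemia-reperfusion, at 19.3 ± 2.9 against 12.4 ± 2.04 CPM (edgeR adjusted p = 0.00682), and not against the shams of the same age (adjusted p = 0.105).

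Of the 10 antiviral effectors, the Ifit genes and Rsad2 with its neighbour Cmpk2 moved apart. Ifit3 (ENSMUSG00000074896, chr19:34583531-34588731, plus strand), whose protein works with Ifit1 to bind foreign RNA, stood at 8.87, 9.64 and 9.86 CPM in wild type, 11.7, 12.0, 10.9 and 10.7 CPM in heterozygous and 34, 17.8, 21.6 and 31.4 CPM in homozygous hearts at 8 weeks. Each homozygous heart lay above all the others, and the rise was 2.79-fold (edgeR adjusted p = 4.63e-05). Heterozygous hearts also lay above wild type hearts without overlap, by 0.26 ± 0.20 on the log2 scale, and did not pass (edgeR adjusted p = 1). At 5 weeks Ifit3 rose 1.52-fold, from 16.5 ± 3.74 to 24.7 ± 5.14 CPM with overlap (edgeR adjusted p = 0.0034), and with all 39 libraries in the fit the adjusted p was 0.0533. After ischemia-reperfusion it stood at 24.7, 16.7, 23.0 and 15.7 CPM against 16.1, 9.87, 6.54 and 8.96 CPM in shams, a 1.94-fold rise (edgeR adjusted p = 0.00914). Sham replicate 1 lay within the I/R range, and against the shams of the same age the call ended (adjusted p = 0.126). Ifit1, Ifit2 and Ifit3b rose in the same 3 comparisons, by 1.44-fold, 1.26-fold and 1.69-fold at 5 weeks (edgeR adjusted p = 0.00791, 0.0442 and 0.00983) and 2.01-fold, 1.58-fold and 2.02-fold at 8 weeks (edgeR adjusted p = 0.000728, 0.00144 and 0.0104). After ischemia-reperfusion they rose 2.15-fold, 1.5-fold and 2.25-fold (edgeR adjusted p = 0.00239, 0.0201 and 0.0109), and against the shams of the same age all 3 of these calls ended (edgeR adjusted p = 0.0532, 0.136 and 0.0552). The 5-week call of Ifit1 ended in the fit of all 39 libraries (adjusted p = 0.111), and that of Ifit2 ended in 5 of 14 alternatives. Ifit3 and Ifit3b are near copies of each other, so their separate values are uncertain.

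Rsad2 (ENSMUSG00000020641, chr12:26442746-26456452, minus strand) encodes viperin, an enzyme that blocks viral RNA synthesis. At 5 weeks it stood at 49.1, 73.1, 67.6 and 65.3 CPM in wild type and 33.5, 38.3, 35 and 37.2 CPM in homozygous hearts, a 1.76-fold fall without overlap (edgeR adjusted p = 2.02e-06). At 8 weeks it stood at 31.4, 28.4 and 39.5 CPM in wild type, 33.5, 34.8, 21.2 and 28.7 CPM in heterozygous and 18.9, 10.7, 10.2 and 19.1 CPM in homozygous hearts, a 2.24-fold fall without overlap (edgeR adjusted p = 0.00117). Sham, I/R and infarction hearts overlapped at 33.5 ± 4.14, 33.1 ± 5.37 and 30.7 ± 6.14 CPM (edgeR adjusted p = 0.944 and 0.608). Cmpk2, a nucleotide kinase gene next to Rsad2, fell 1.4-fold at 5 weeks and 2.24-fold at 8 weeks (edgeR adjusted p = 0.00478 and 0.000968), and its 5-week call ended when scaled by library size alone (adjusted p = 0.0872). In the surgery set Cmpk2 stood at 14.7 ± 3.18 CPM after ischemia-reperfusion and 13.0 ± 2.56 CPM in shams (edgeR adjusted p = 0.426).

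The oligoadenylate synthetase genes, whose products mark viral RNA for breakdown, differed among themselves. Oas2 fell 2.1-fold at 8 weeks, from 27.4 ± 7.29 to 12.9 ± 5.95 CPM (edgeR adjusted p = 0.00537), and rose 1.61-fold after ischemia-reperfusion (edgeR adjusted p = 0.00796, and 0.138 against the shams of the same age). Oas1a rose 1.68-fold at 5 weeks and 2.78-fold after ischemia-reperfusion (edgeR adjusted p = 0.00704, or 0.0606 with all 39 libraries in the fit, and 0.00194) and stood at 3.62 ± 0.441 CPM in wild type and 3.43 ± 2.3 CPM in homozygous hearts at 8 weeks. Oasl2 rose 2.36-fold after ischemia-reperfusion, from 16.1 ± 2.68 to 37.9 ± 3.34 CPM (edgeR adjusted p = 1.77e-05). It was also the member called after infarction, at 20.5, 29.98, 19.2 and 21.4 CPM against 20.1, 15.1, 14.4 and 14.8 CPM in shams, a 1.41-fold rise (edgeR adjusted p = 0.0407) that ended in 6 of 14 alternatives. Sham replicate 1 lay within the infarction range. Bst2, which holds virus particles at the cell surface, passed after ischemia-reperfusion and in neither mutant comparison.

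Isg15 and its protease Usp18 rose after ischemia-reperfusion and did not pass in homozygous hearts. Isg15 (ENSMUSG00000035692, chr4:156199424-156200818, minus strand) is a small protein that is attached to other proteins as ubiquitin is. It stood at 17.0, 12.4, 18.1 and 11.2 CPM after ischemia-reperfusion and 4.71, 4.14, 3.74 and 4.32 CPM in shams. The groups lay far apart, with a 3.47-fold rise (log2 1.80 ± 0.21, edgeR adjusted p = 1.88e-05). Infarction hearts held 7.21, 8.04, 5.45 and 4.47 CPM (edgeR adjusted p = 0.106). At 8 weeks it stood at 5.84, 6.75 and 6.11 CPM in wild type, 4.41, 5.36, 5.29 and 4.96 CPM in heterozygous and 8.69, 5.06, 4.23 and 9.90 CPM in homozygous hearts (edgeR adjusted p = 0.589). Homozygous replicates 1 and 4 were high, as for Irf7, and the other 2 were below wild type. At 5 weeks the levels were 9.52 ± 2.33 and 12.0 ± 1.69 CPM (edgeR adjusted p = 0.0885). The effect at 8 weeks was below that of ischemia-reperfusion by 1.60 on the log2 scale (difference -1.60 ± 0.38, edgeR adjusted p = 0.00117). Usp18 (ENSMUSG00000030107, chr6:121245906-121270917, plus strand), which removes Isg15 and damps the receptor, stood at 10.2, 7.77, 10.6 and 8.27 CPM against 4.52, 4.87, 5.18 and 4.95 CPM in shams, a 1.89-fold rise without overlap (edgeR adjusted p = 0.000289). Its 8-week levels were 5.88 ± 0.382 CPM in wild type and 6.43 ± 1.6 CPM in homozygous hearts (edgeR adjusted p = 0.564).

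The interferon-inducible GTPases, which attack the vacuoles of intracellular microbes and are strong targets of interferon gamma, held no member that passed as higher in homozygous hearts against wild type or in I/R hearts against shams. At 8 weeks 3 of 4 fell against wild type and 0 rose, where 29% of all genes were lower and 30.8% higher. Against heterozygous hearts only 1 of 4 was lower (Gbp3), where 30% of all genes were. That call ended in 6 of 14 alternatives. At 5 weeks 1 of 4 fell (Gbp3), near the 21.4% of all genes that were lower. After ischemia-reperfusion 0 of 4 passed, where 31% of all genes did. Gbp2 (ENSMUSG00000028270, chr3:142620602-142638008, plus strand) stood at 24.6, 34.8 and 32.9 CPM in wild type, 22.2, 26.6, 23.1 and 22.0 CPM in heterozygous and 21.6, 17.0, 13.0 and 21.1 CPM in homozygous hearts at 8 weeks, a 1.68-fold fall without overlap from wild type (edgeR adjusted p = 0.00218). The heterozygous hearts overlapped the wild type and lay above every homozygous heart, but their difference from homozygous hearts did not pass. Sham, I/R and infarction hearts held 28.3 ± 5.17, 26.8 ± 3.56 and 27.4 ± 2.6 CPM (edgeR adjusted p = 0.735 and 0.869). Gbp3 fell 1.36-fold at 5 weeks and 1.85-fold at 8 weeks (edgeR adjusted p = 0.00255 and 0.0026), and its 5-week call ended when scaled by library size alone (adjusted p = 0.0933) and with all 39 libraries in the fit (0.0846). Igtp fell 2.1-fold at 8 weeks (edgeR adjusted p = 0.00843), but wild type replicate 3 stood at 43.6 CPM beside 14.4 and 23.9 CPM, and without it the call ended (adjusted p = 0.0716). Irgm1 (ENSMUSG00000046879, chr11:48861968-48871683, minus strand), which also acts in autophagy, stood at 27.8, 33.8 and 40.6 CPM in wild type and 32.9, 28.1, 27.4 and 27.0 CPM in homozygous hearts at 8 weeks (edgeR adjusted p = 0.123). It was 1.25-fold higher in I/R than in infarction hearts (log2 0.32 ± 0.10, edgeR adjusted p = 0.0319), a call that ended in 7 of 14 alternatives. Igtp overlaps Irgm2 on the same strand.

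Psmb8 and Psmb9 encode the catalytic subunits that replace their constitutive counterparts in the immunoproteasome, which shapes peptides for antigen presentation. At 5 weeks both rose. Psmb8 (ENSMUSG00000024338, chr17:34197721-34201454, plus strand) went from 18.4, 21.3, 20.2 and 19.5 to 24.5, 29.7, 22.1 and 26.4 CPM (1.3-fold, edgeR adjusted p = 0.00399). Psmb9 (ENSMUSG00000096727, chr17:34181987-34187764, minus strand) went from 8.61, 8.36, 9.17 and 7.75 to 12.8, 13.7, 10.9 and 9.90 CPM (1.41-fold, edgeR adjusted p = 0.00607, and 0.0621 with all libraries in the fit). Neither gene's groups overlapped at 5 weeks. At 8 weeks Psmb8 stood at 19.5, 22.5 and 29.9 CPM in wild type and 22.2, 23.6, 17.2 and 24.6 CPM in homozygous hearts, and Psmb9 at 13.2 ± 4.31 and 10.6 ± 1.09 CPM (edgeR adjusted p = 0.58 and 0.304). After ischemia-reperfusion Psmb8 rose 1.45-fold without overlap, from 17.6 ± 2.05 to 25.4 ± 2.1 CPM (edgeR adjusted p = 0.00117), while Psmb9 held 10.5 ± 1.98 and 11.5 ± 1.79 CPM (edgeR adjusted p = 0.573). The constitutive subunits passed in 0 of 3 genes in any of these comparisons. Psmb9 overlaps Tap1 on the opposite strand. Tap1, a peptide transporter, passed in none of the 3 comparisons.

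Among the 7 remaining members, Ifi27l2a and Parp14 moved furthest apart. Ifi27l2a (ENSMUSG00000079017, chr12:103442167-103443680, minus strand), a small membrane protein gene, was the highest member per length, at 44.3 ± 5.92 CPM per kilobase of exon in wild type hearts at 8 weeks and 205 ± 24.4 in homozygous hearts. On the CPM scale it stood at 18.4, 19.5 and 23.6 in wild type, 18.5, 27.3, 20.5 and 17.2 in heterozygous and 108, 92.5, 80.7 and 98.9 in homozygous hearts. The homozygous hearts lay far above both other groups, with a 4.66-fold rise (edgeR adjusted p = 7.74e-07). At 5 weeks it rose 2.28-fold, from 34.2 ± 7.99 to 77.4 ± 12.7 CPM (edgeR adjusted p = 6.42e-07). At 3 weeks it went the other way, at 11.9, 12.5, 11.8 and 4.75 CPM in homozygous and 18, 28.6, 26.4 and 12.9 CPM in wild type hearts. Those groups did not overlap, and the difference did not pass (log2 -1.07 ± 0.29, edgeR adjusted p = 0.267). In the surgery set it varied widely, at 33.8, 8.53, 11.6 and 21.3 CPM in shams, 29.6, 37.4, 53.3 and 40.5 CPM after ischemia-reperfusion and 31.3, 66.7, 30.5 and 19.6 CPM after infarction. The shams of 12 weeks (replicates 1 and 4) were the higher 2, and the ischemia-reperfusion call (edgeR adjusted p = 0.0398) ended in 8 of 14 alternatives, with an adjusted p of up to 0.37.

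Parp14 (ENSMUSG00000034422, chr16:35832874-35871544, minus strand), an ADP-ribosyltransferase gene, stood at 38.4, 43.3 and 50.2 CPM in wild type, 37.5, 35.7, 39.8 and 40.1 CPM in heterozygous and 22.2, 17.4, 16.6 and 27.2 CPM in homozygous hearts at 8 weeks. Every homozygous heart was lower than every other heart of that age, with a 2.09-fold fall (edgeR adjusted p = 8.01e-05). At 5 weeks it stood at 55.5 ± 6.81 and 52.2 ± 3.11 CPM (edgeR adjusted p = 0.499). After ischemia-reperfusion it held 48.8, 34.6, 48.8 and 47.9 CPM against 38.0, 30.5, 34.4 and 37.4 CPM in shams, a 1.29-fold rise (edgeR adjusted p = 0.0299) that ended in 6 of 14 alternatives. Replicate 2 of the I/R hearts lay within the sham range. Trim30a, a regulator of inflammatory signalling, rose 1.3-fold at 5 weeks and 2-fold after ischemia-reperfusion (edgeR adjusted p = 0.00145 and 1.96e-05), and stood at 14.0 ± 1.94 and 13.2 ± 1.14 CPM at 8 weeks. Ifi44 fell at 5 and 8 weeks, by 1.43-fold and 1.84-fold (edgeR adjusted p = 0.01 and 0.00479), Xaf1 fell 1.24-fold at 5 weeks (edgeR adjusted p = 0.0234) and Rtp4 rose 1.89-fold after ischemia-reperfusion (edgeR adjusted p = 0.000474). Ifi35 passed in none of these. The 5-week calls of Ifi44 and Xaf1 ended when scaled by library size alone and with all libraries in the fit.

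**Figure D3:**
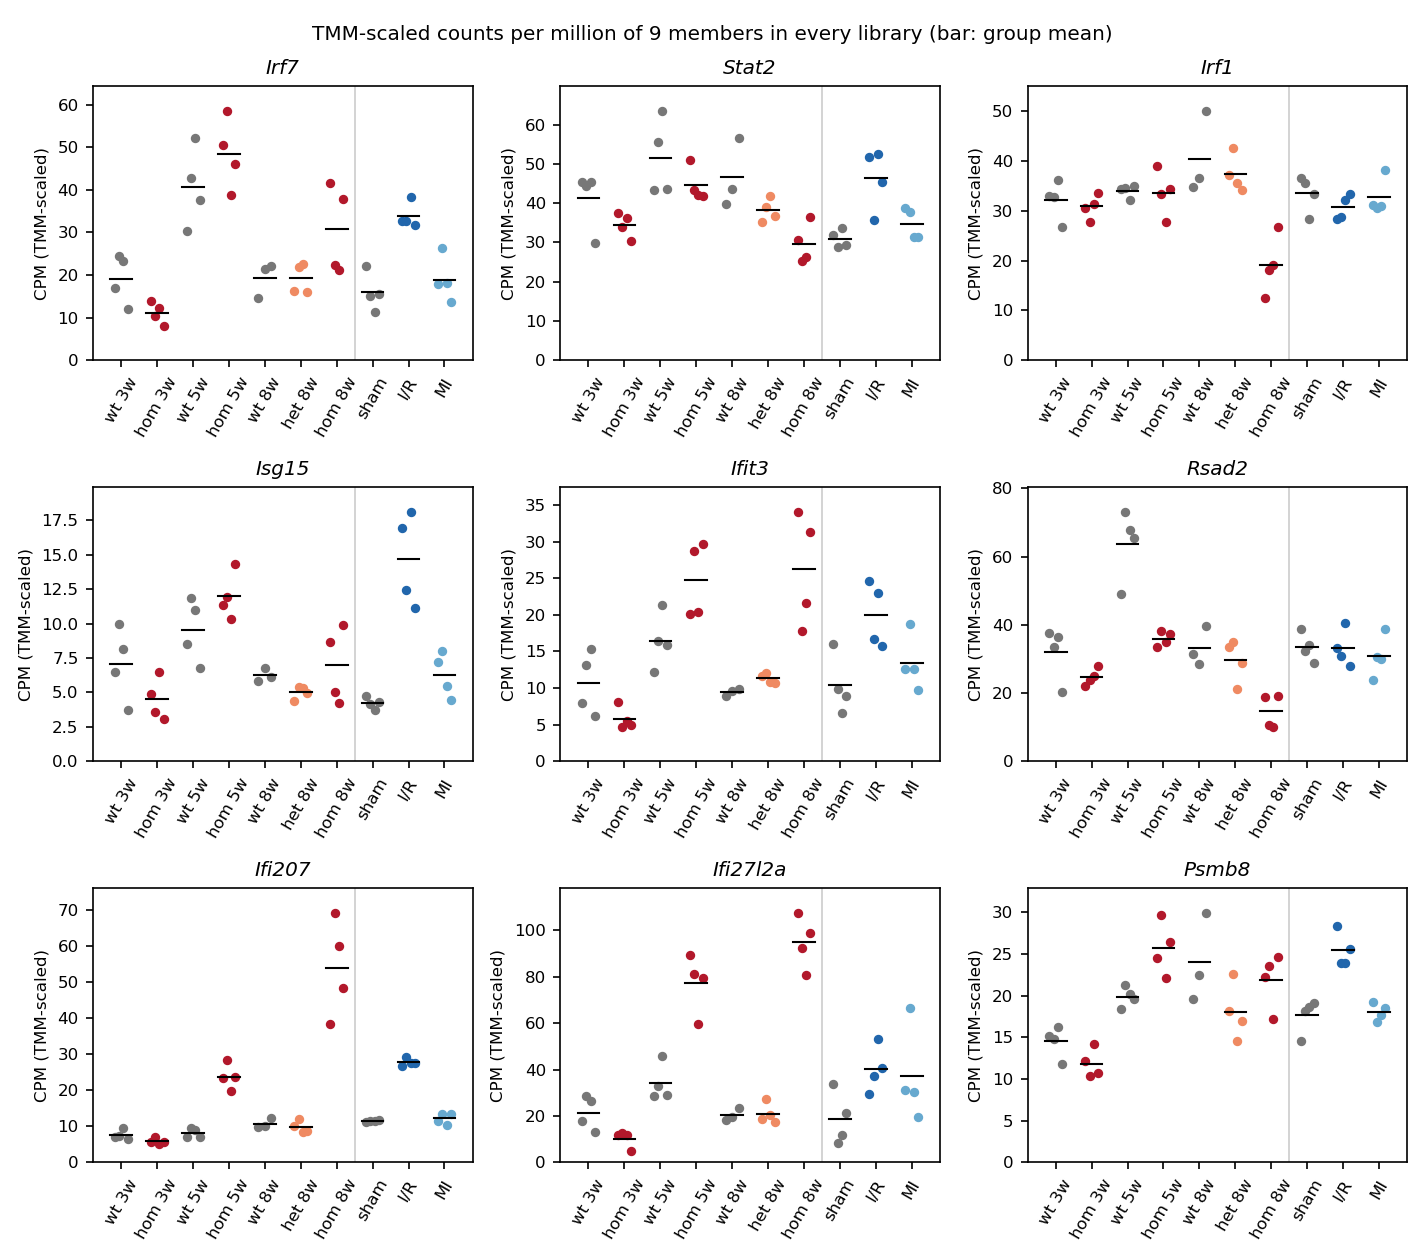
TMM-scaled CPM (vertical axes, starting at 0) of 9 members in each of the 39 libraries, with points for hearts and a bar for each group mean. A grey line separates the mutant set from the surgery set. For Ifi207 and Ifi27l2a, every homozygous heart at 5 and 8 weeks lies above the wild type hearts of its age. For Isg15, every ischemia-reperfusion heart lies above every sham. Ischemia-reperfusion hearts overlap the 5-week homozygous hearts for Ifi207 and Isg15. Irf1 and Rsad2 have their lowest group means in homozygous hearts at 8 weeks.

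Per kilobase of exon, Ifi27l2a (44.3 ± 5.92 CPM) and Bst2 (32.5 ± 6.08 CPM) led in wild type hearts at 8 weeks. Igtp (13.5 ± 7.39) and Ifi35 (13.3 ± 1.28) followed and did not differ beyond their spread, and Zbp1 (0.812 ± 0.414) was the lowest of the 34. In homozygous hearts Bst2 held 33.98 ± 4.58 CPM per kilobase, and Ifi207 went from 3.11 ± 0.387 to 15.8 ± 3.91.

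Between ages, wild type hearts at 8 weeks had, against those of 3 weeks, 7 members higher and 0 lower, where 8.44% of 13822 genes were higher and 7.81% lower (16.2% in all). These were Psmb8 (1.65-fold, edgeR adjusted p = 0.0012), Gbp2 (1.63-fold, edgeR adjusted p = 0.0033), Psmb9, Parp14, Irgm1, Ifi204 and Ifi207. Without wild type replicate 3 of 8 weeks the count was 2.

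The genotype effect at 5 weeks was above that at 3 weeks in 13 members and below it in 0, where 11.1% of 14931 genes were above and 9.29% below (20.4% in all). The uncalled negative values at 3 weeks enter these differences. Irf7, Isg15 and Usp18 were among the 13 and did not pass at 5 weeks. Isg15 and Usp18 had log2 fold changes of -0.65 to -0.56 at 3 weeks and 0.35 at 5 weeks. Leaving out 1 library gave 9 to 19, with 9 without wild type replicate 2 and 19 without wild type replicate 4 of 3 weeks. Zbp1 differed most (log2 2.51 ± 0.53, edgeR adjusted p = 0.000796), followed by Ifi204, Ifi27l2a and Ifi207. From 5 to 8 weeks the effect rose for 1 member, Ifi207, and fell for 5, namely Irf1, Oas2, Igtp, Psmb9 and Parp14, where 14.4% of genes rose and 13.8% fell (28.2% in all). Leaving out 1 library gave 3 to 10 of these calls. The count was 3 without wild type replicate 3 of 8 weeks and 10 without wild type replicate 1, and the call of Psmb9 ended in 12 of 20 alternatives. These comparisons also differ in depth and in sample naming between ages, which cannot be told apart from age here.

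Set against ischemia-reperfusion, the 8-week homozygous effect was lower for 21 members and higher for 2, Ifi207 and Ifi27l2a, where 17.2% of genes were lower and 16.6% higher (33.8% in all). Without wild type replicate 3 of 8 weeks 15 differed. The largest gaps were Zbp1 (log2 -2.17 ± 0.51, edgeR adjusted p = 0.00115), Oas2 (-1.74 ± 0.36, edgeR adjusted p = 0.000327) and Isg15. The difference for Ifi27l2a (1.15 ± 0.45, edgeR adjusted p = 0.0477) ended in 13 of 19 alternatives, among them library size scaling and DESeq2. Against infarction, the 8-week effect was higher for 4 members (Ifi204, Ifi207, Ifit3 and Ifi27l2a) and lower for 9, where 19.6% of genes were higher and 17.7% lower (37.4% in all).

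**Figure D4:**
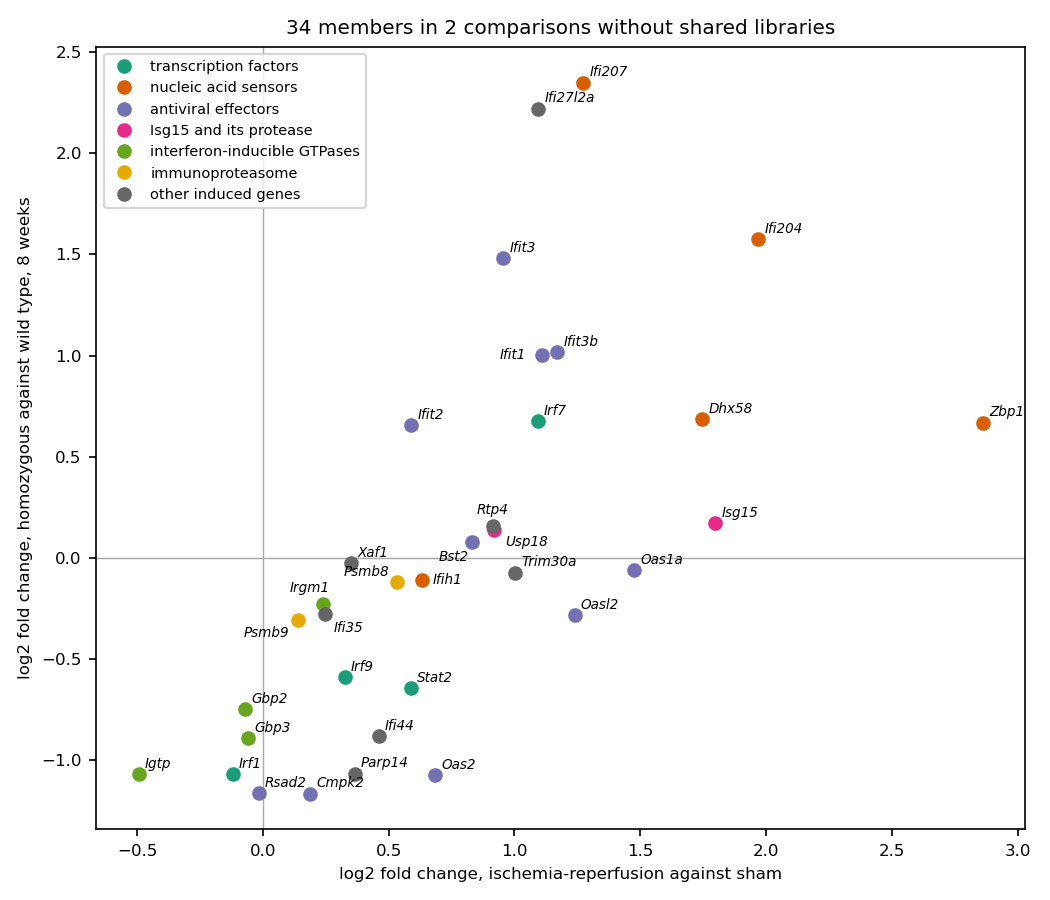
Log2 fold change of each member after ischemia-reperfusion (horizontal) against that in homozygous hearts at 8 weeks (vertical), coloured by role, in comparisons that share no library. Ifi207 and Ifi27l2a lie highest, Zbp1 farthest to the right, and Stat2, Oas2 and Parp14 lie right of 0 and below 0.

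The plot of members in the 2 comparisons shows 9 members called higher in both. The effects differed in 3 of these 9 (Dhx58, Ifi207 and Ifi27l2a), and of these differences that of Dhx58 ended in 8 of 19 alternatives, that of Ifi27l2a in 13 of 19 and that of Ifi207 in 0 of 19. A further 10 passed as higher after ischemia-reperfusion and did not pass at 8 weeks, and the effects differed in 9 of these 10, with Usp18 as the exception. Another 8 passed as lower at 8 weeks and did not pass after ischemia-reperfusion, and the effects differed in 7 of these 8, with Igtp as the exception. For Oas2, Parp14 and Stat2, which passed in opposite directions, they differed in 3 of 3. The members were sorted by calls from the same libraries that the differences use, so the sorting itself partly fixed these counts. They are a description, not separate support, and no share over all genes stands beside them.

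The genes upstream of the members were taken from lists of the pathway. The 10 interferon genes on the list were at or near the limit of detection. Ifnb1 had 2 counts, Ifng 15 and Ifnl2 1 over all 39 libraries, the 7 others on the list had 0, and none could be tested. Of the Ifna genes the list held only Ifna1, Ifna2, Ifna4 and Ifna5, and others were not looked up. Of the 6 receptor genes, 2 were higher and 0 lower at 5 weeks, 2 and 2 at 8 weeks, and 2 and 0 after ischemia-reperfusion, where Ifnar2 had the smallest p. Over all genes, 22.3% were higher and 21.4% lower at 5 weeks, 30.8% and 29% at 8 weeks, and 16.9% and 14.1% after ischemia-reperfusion. Ifnar1, a subunit of the type I receptor, rose at 5 weeks from 40.6 ± 2.84 to 47.3 ± 1.84 CPM (edgeR adjusted p = 0.0135) and after ischemia-reperfusion (edgeR adjusted p = 0.0163), and stood at 37.8 ± 1.67 CPM in wild type and 41.8 ± 6.43 CPM in homozygous hearts at 8 weeks (edgeR adjusted p = 0.229). The 2 interferon gamma receptor genes moved in opposite directions at 8 weeks. Ifngr1 rose 2.39-fold, from 66.9 ± 4.12 to 159 ± 29.3 CPM (edgeR adjusted p = 5.56e-06), and Ifngr2 fell 2.48-fold, from 216 ± 11.1 to 86.2 ± 11.7 CPM (edgeR adjusted p = 9.1e-07).

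Of the genes that sense nucleic acid and induce interferon, 10 of 15 tested were higher and 2 lower at 5 weeks, 9 and 2 at 8 weeks, and 10 and 1 after ischemia-reperfusion. Beside these and the lists below, 22.3% of all genes were higher and 21.4% lower at 5 weeks. At 8 weeks it was 30.8% and 29%, and after ischemia-reperfusion 16.9% and 14.1%. Tlr7, an RNA sensor of the endosome, rose 9.2-fold at 8 weeks, from 3.03 ± 0.232 to 27.7 ± 10.7 CPM (edgeR adjusted p = 4.76e-06). Mavs, the mitochondrial adaptor of the RNA sensors, fell in all 3 comparisons, by 1.95-fold at 8 weeks (edgeR adjusted p = 7.8e-06). Of the 9 negative regulators tested, 2 were higher and 2 lower at 5 weeks, 5 and 1 at 8 weeks, and 5 and 1 after ischemia-reperfusion. Socs3, a brake on Jak kinases, rose 4.82-fold at 5 weeks, 3.42-fold at 8 weeks and 4.71-fold after ischemia-reperfusion (edgeR adjusted p = 1.98e-09, 0.000181 and 1.34e-05). Of the 4 genes that conjugate Isg15, 1 was higher and 1 lower at 5 weeks, 1 and 2 at 8 weeks, and 2 and 0 after ischemia-reperfusion, with Ube2l6 the one of smallest p among those higher each time.

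A list of 71 other interferon-stimulated genes, outside the 34 members, was counted in the same way. At 5 weeks 23 of 66 tested were higher and 13 lower, at 8 weeks 19 of 69 were higher and 25 lower, after ischemia-reperfusion 33 of 67 were higher and 3 lower, and after infarction 6 were higher and 1 lower. Over all genes 22.3% were higher and 21.4% lower at 5 weeks, 30.8% and 29% at 8 weeks, 16.9% and 14.1% after ischemia-reperfusion, and 6.62% and 4.77% after infarction. The medians of log2 fold change were 0.085, -0.115, 0.45 and 0.131 in that order, beside 0.00, 0.02, -0.02 and 0.00 for all genes. Oas3 rose 26.5-fold after ischemia-reperfusion, from 0.257 ± 0.114 to 6.93 ± 1.46 CPM (edgeR adjusted p = 5.76e-07). With so low a level in shams, the size of this fold is uncertain. Ifitm2, which blocks virus entry, rose 2.34-fold at 8 weeks (edgeR adjusted p = 6.3e-06). Tnfsf10, the death ligand TRAIL, fell 3.97-fold at 8 weeks, from 27.0 ± 3.02 to 6.75 ± 0.596 CPM (edgeR adjusted p = 3.96e-07). Gbp4, a further GTPase, fell at 5 weeks, at 8 weeks and after ischemia-reperfusion, by 1.53-fold, 3.22-fold and 1.85-fold (edgeR adjusted p = 0.000268, 0.000242 and 0.00694).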

How the data were processed

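Total RNA from left ventricle was extracted with Trizol and made into stranded mRNA libraries, per the labels' protocols. Reads were aligned to mm10 with STAR 2.7.3a and counted per gene with featureCounts of Subread 2.0.0, per the submitters' processing notes. Neither the strand setting nor the annotation release is named in those notes or labels. Hence the 10 members with an overlapping gene are uncertain. The deposited values are raw counts per gene and library. Names and positions were taken from an annotation of GRCm38 for 36345 of 38293 gene IDs, and unnamed IDs held 0.133% of counts.

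Counts were filtered with filterByExpr, scaled by TMM and tested with edgeR 4.0.16 (R 4.3.3) separately at each age and in the surgery set. Differences between effects were tested as interactions in 1 fit of all 39 libraries. All 34 members passed the filter in each comparison. Standard errors were derived from the fold change and edgeR's F statistic. CPM used TMM factors over all libraries, so ratios of means can differ slightly from fold changes. Depth was 9402904 to 19320791 counts per library. None of 57 replicate pairs was identical (chi-square per gene 4.03 to 97.4). Numbers were not treated as pairs, as in no comparison did every same-numbered pair exceed a correlation of 0.1. This check cannot exclude that single pairs deviate together, and the highest correlation was 0.244, at 3 weeks. The script was tested on simulated data. Alternatives were DESeq2 1.42.0, other scaling, no filter, other fits, same-age shams, a replicate block and each library left out.

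Members and gene lists were chosen with earlier results of these data known. The per-heart values follow a rule: in each role the member with the highest mean CPM and that with the smallest p at 8 weeks, plus Irf7, Isg15 and Stat2. From pathway lists, genes with the smallest p in a direction were eligible, with Ifnb1, Ifng and Ifnar1. The kinase and Stat list is not reported here. Further genes, and per-heart values outside the rule (such as Oasl2 after infarction, Igtp in wild type hearts), were added after their values were seen. The comparison with the ischemia-reperfusion effect was added after seeing the data.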

Additional observations from a re-analysis of the deposited data

Results flagged for a closer look

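Among 14 members and their mean, 9 single hearts stood apart from the other 3 of their group, of 135 groups of 4 checked, where chance gives about 1 in 20. The low ones were homozygous replicate 4 of 3 weeks for Ifi27l2a (4.75 CPM) and Usp18 (2.21 CPM), wild type replicate 4 of 3 weeks for Stat2 (29.96 CPM) and I/R replicate 2 for Parp14 (34.6 CPM). The high ones were homozygous replicate 1 of 3 weeks for Gbp2 (15.4 CPM), homozygous replicate 1 of 5 weeks for Stat2 (51.0 CPM), I/R replicate 3 for Irf7 (38.2 CPM), infarction replicate 4 for Irf1 (38.2 CPM) and infarction replicate 1 for Irgm1 (31.6 CPM).

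The homozygous effect differed between 5 and 3 weeks, by a test of the difference, in 13 members, of which Irf7, Isg15 and Usp18 did not pass at 5 weeks itself. On the log2 scale the differences among the members followed heart by heart were 2.25 for Ifi27l2a, 1.95 for Ifi207, 1.47 for Ifit3, 1.03 for Irf7, 0.99 for Isg15, 0.90 for Usp18 and 0.67 for Psmb8. Between 8 and 5 weeks it differed in 6 members, with 0.81 for Ifi207, -1.04 for Irf1, -0.97 for Parp14 and -0.78 for Psmb9.

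The 8-week effect differed from the infarction effect in 13 members, with 2.30 for Ifi207, 1.28 for Ifi27l2a, 1.13 for Ifit3, -0.68 for Gbp2, -0.79 for Stat2, -0.97 for Parp14, -1.005 for Irf1 and -1.01 for Rsad2. It differed from the ischemia-reperfusion effect in 23 members, with 1.15 for Ifi27l2a, 1.102 for Ifi207, -0.63 for Psmb8, -0.66 for Gbp2, -0.93 for Irf1, -1.12 for Rsad2, -1.21 for Stat2, -1.41 for Parp14 and -1.60 for Isg15.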

How the results depend on the processing

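No called member changed direction under any alternative run. Across all alternatives, 17 of the 20 calls at 8 weeks, 8 of 18 at 5 weeks, 14 of 22 after ischemia-reperfusion and 0 of 1 after infarction kept their side of the threshold. The count at 5 weeks went from 18 to 9 with all 39 libraries in the fit. That after ischemia-reperfusion went from 22 to 14 with same-age shams. Fewer samples enter there, and the shams are of 1 age only, which cannot be told apart. After infarction the count of 1 became 2 with library size scaling, with DESeq2 and with all libraries in the fit, 3 without the filter and 5 with same-age shams. Wild type hearts at 8 against 3 weeks gave 11 without the filter, in place of 7. The cause was not tested. Leaving out 1 library in turn gave 0 to 0 members at 3 weeks, 17 to 20 at 5 weeks, 19 to 22 at 8 weeks, 0 to 0 for heterozygous hearts, 16 to 21 for homozygous against heterozygous hearts, 19 to 24 after ischemia-reperfusion, 0 to 4 after infarction, 13 to 20 between these injuries and 2 to 10 for wild type hearts at 8 against 3 weeks. For the differences between effects it gave 9 to 19 (5 against 3 weeks), 3 to 10 (8 against 5 weeks), 10 to 13 (against infarction) and 15 to 24 (against ischemia-reperfusion).

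With the replicate number as a block, the counts were 0 at 3 weeks, 21 at 5 weeks, 19 at 8 weeks, 0 for heterozygous hearts, 18 for homozygous against heterozygous hearts, 20 for ischemia-reperfusion against infarction and 5 for wild type hearts at 8 against 3 weeks. The call of Irf7 at 8 weeks ended under the block. Correlations of deviations between same-numbered samples ran from -0.115 to 0.244. The labels number shams within each age, so no block over 4 shams was fitted.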
